A study of Homo sapiens with 6 samples.

Results

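The 9 genes described here encode proteins of the tight junction. They are the claudins CLDN1, CLDN2, CLDN4, CLDN7 and CLDN12, the membrane proteins occludin (OCLN) and junctional adhesion molecule A (F11R), and the scaffold proteins ZO-1 (TJP1) and ZO-3 (TJP3). Their rows were found by gene symbol in a table of 24846 genes, each symbol had 1 row, and all 9 passed the filter on low values (a sum of at least 10 normalized counts).

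RNA-seq was performed on A549 cells, an epithelial cell line from a human lung adenocarcinoma, with the genotype given as WT. In the ACC group, 3 cultures were kept for 8 passages in DMEM/F12 without calcium, supplemented with amorphous calcium carbonate (ACC) that supplied 2 mM elemental calcium. In the control group, 3 cultures were kept for the same number of passages in regular DMEM/F12. Both media held fetal bovine serum and antibiotics. The source of the calcium and its amount differed between the groups. ACC also brought carbonate and, per the study's methods, a tripolyphosphate stabilizer. These differences came together, so their parts in any difference cannot be told apart. All data come from a single cell line, and no source used here says if cultures of a group were kept apart through the passages, so the p-values measure the spread between these samples, which may be technical.

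Tight junctions close the space between neighbouring epithelial cells. Claudins span the membrane 4 times and form the strands of the junction, where some members seal the space and others, such as CLDN2, form pores for small cations and water. Occludin and the junctional adhesion molecules sit in or beside the strands, and the ZO proteins underneath them bind the tails of most claudins through PDZ domains and link them to actin. In the lung the make-up of the claudins sets how easily ions and fluid pass between the cells of the airway and the alveolus.

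The libraries held 21771645 to 23798621 reads in genes with ACC and 22801246 to 24805486 in the control. Mitochondrial genes took 4.39% to 5.70% of these reads with ACC and 4.04% to 4.29% in the control, and the part of this difference in the results was not tested. Markers of simple epithelium summed to 110386 to 115034 normalized counts with ACC and 132798 to 134573 in the control, mostly from KRT8 and KRT18, which fell by 0.31 and 0.42 on the log2 scale. CDH1 (1.10), ELF3 (0.89), KRT19 (0.64) and EPCAM (0.62) rose (limma, adjusted p at most 0.05 for all 6), and ESRP1 and ST14 stayed below 15 normalized counts in every library. Of the alveolar type II markers, 7 were measured, ABCA3 alone reached 30 reads, and NKX2-1 was at 0 in all 6 libraries. Fibroblast markers summed to 583 to 712 normalized counts with ACC and 2360 to 2539 in the control, mostly from COL1A1, and all 6 of the list's 8 genes that were tested passed as lower (COL1A1, COL3A1, LUM, PDGFRA, PDGFRB and THY1), while COL1A2 and DCN stayed at 1.02 normalized counts or less. Endothelial markers summed to 72.2 to 91.3 with ACC and 308 to 322 in the control, mostly from ESAM, with KDR at 0, while PECAM1 passed as higher at 9.45 ± 2.77 with ACC and 2.77 ± 1.58 in the control. Leukocyte markers summed to 82.0 to 103 with ACC and 17.1 to 48.2 in the control, mostly from ITGAX, with CD3E at 0 and PTPRC at 0.96 or less. The part of these markers in the results was not tested.

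The 9 genes did not move together. TJP3 rose most, at 5.81-fold, CLDN7 and CLDN4 rose over 2-fold, CLDN2, OCLN and CLDN12 rose by less, CLDN1 and TJP1 fell, and F11R did not pass the test. Values are normalized counts (reads per gene divided by a size factor of the library), and fold changes come from log2(normalized count + 1), a scale that understates the change of low genes. A gene passed where its adjusted p from limma, fitted and adjusted over all 19318 genes tested, was at most 0.05. Of the 9 genes, 6 passed as higher, against 21.3% of all genes tested and 27.2% of those with at least 30 reads in 1 library, as all 9 have. A further 2 passed as lower, against 21.9% of all genes tested and 28.3% of those with at least 30 reads. A gene was called where it also changed at least 2-fold and had at least 30 reads in 1 library. TJP3, CLDN7 and CLDN4 were called higher, against 2.77% of all genes tested. None of the 9 was called lower by limma, edgeR or DESeq2, against 2.24% of all genes tested with limma, and the same 2 genes, CLDN1 and TJP1, had an unadjusted limma p under 0.05 in that direction. The 3 ACC and 3 control values did not overlap for any of the 9 genes, with ACC higher in 7 and lower in 2. Among all genes tested, 25.5% were apart with ACC higher and 25.9% with ACC lower, and among those with at least 30 reads 31.0% were apart with ACC higher and 32.0% with ACC lower. The median log2 fold change of the 9 genes was 0.26, beside 0.0001 over all genes tested.

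**Figure D1:**
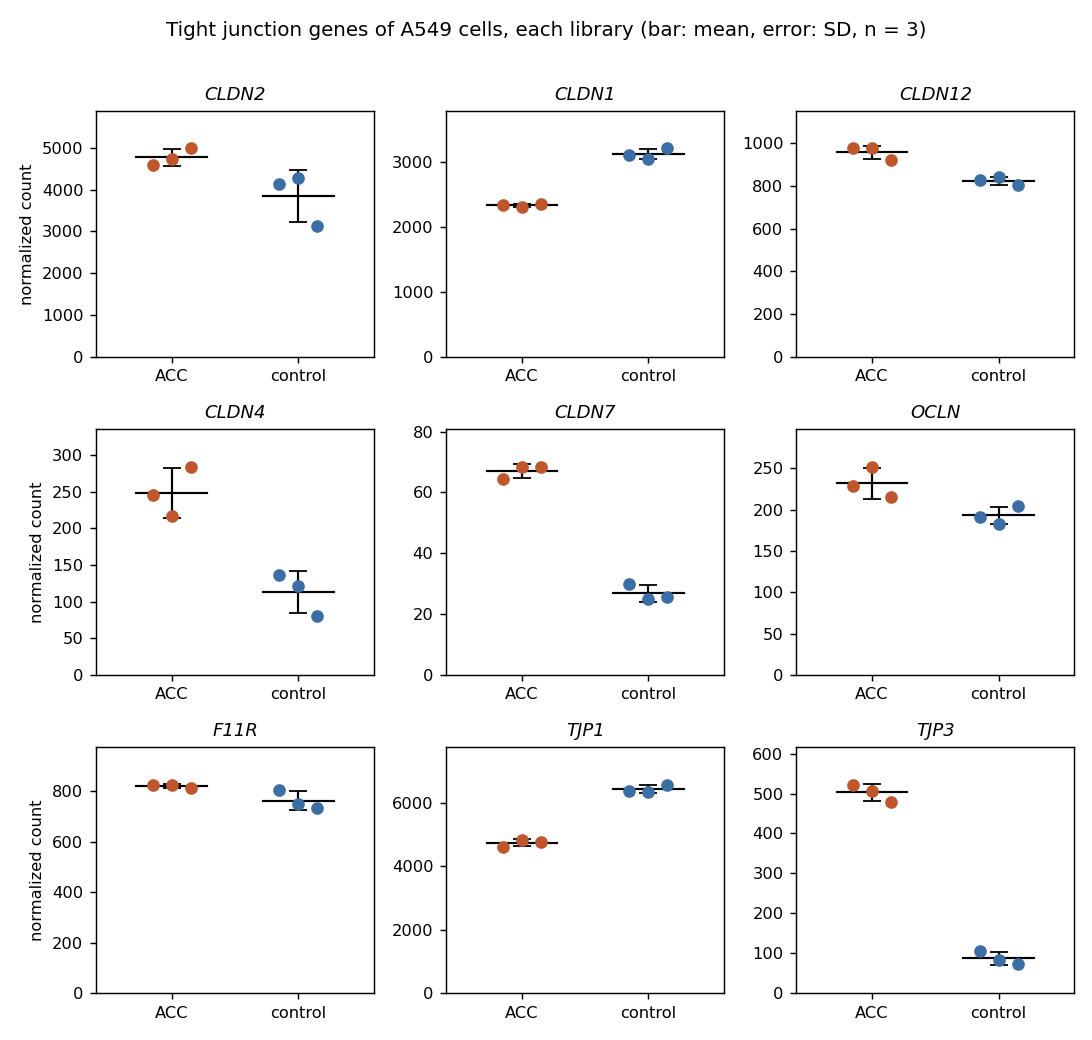
Normalized counts of the 9 genes in each library, ACC left and control right, on axes that start at 0 (bar: mean, error bar: SD, n = 3 each). TJP3 lies at 480 to 523 with ACC and 72.2 to 104 in the control, and CLDN1 and TJP1 lie lower with ACC in every library.

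CLDN2, the pore-forming claudin, had 4595, 4730 and 4986 normalized counts with ACC, against 4123, 4275 and 3126 in the control. All 3 ACC libraries were above all 3 control libraries, and control replicate 3 lay far below the others of its group. The mean was 4770 ± 199 with ACC and 3842 ± 624 in the control (SD, n = 3 each), and CLDN2 rose by a log2 fold change of 0.33 (95% interval 0.16 to 0.49, adjusted p = 0.00231). Without control replicate 3 the log2 fold change was 0.18 (adjusted p = 0.000649), and with DESeq2 on the reads recovered from the normalized counts it was 0.31 and no longer passed (adjusted p = 0.0628). CLDN2 lies at chrX:106900164-106930861 on the plus strand (GRCh38) within the span of MORC4 on the other strand. The 2 genes share no exon bases. MORC4 had 4228 ± 104 normalized counts with ACC and 7479 ± 76.2 in the control, so it fell while CLDN2 rose.

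CLDN1, a sealing claudin, had 2342, 2311 and 2364 normalized counts with ACC, against 3118, 3057 and 3216 in the control. It fell in every library, with a gap between the groups that was far wider than the range within either. The mean was 2339 ± 26.9 with ACC and 3130 ± 80.7 in the control (SD, n = 3 each), and the log2 fold change was -0.42 (95% interval -0.50 to -0.34, adjusted p = 4.23e-08). The gene lies at chr3:190305707-190322446 on the minus strand (GRCh38), with 4 exons in its canonical transcript.

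The ratio of CLDN2 to CLDN1 sets a pore-forming claudin against a sealing claudin within each library, so it does not depend on how the libraries were scaled. It was 1.96, 2.05 and 2.11 with ACC, against 1.32, 1.40 and 0.972 in the control. The mean log2 ratio was higher by 0.75 with ACC (two-sided exact permutation p = 0.1, the smallest p that 3 against 3 samples allow). Without control replicate 3 the difference was 0.58. As CLDN2 was higher and CLDN1 lower in every ACC library, the p was fixed in advance and adds nothing to the results of the 2 genes.

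CLDN12, which lacks the C-terminal motif by which most claudins bind PDZ scaffolds, had 975, 975 and 923 normalized counts with ACC, against 826, 842 and 804 in the control. The groups did not overlap, and the mean was 957 ± 29.97 with ACC and 824 ± 18.9 in the control (SD, n = 3 each). CLDN12 rose by a log2 fold change of 0.22 (95% interval 0.11 to 0.32, adjusted p = 0.00146). It lies at chr7:90383721-90513402 on the plus strand. Of its exon bases, 5.07% are shared with another annotated gene on that strand, which is not among the 24846 genes measured.

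CLDN4, a sealing claudin of many simple epithelia and a receptor of Clostridium perfringens enterotoxin, had 245, 217 and 284 normalized counts with ACC, against 137, 122 and 80.7 in the control. The lowest ACC library was well above the highest control library, although both groups were wide. The mean was 249 ± 34.0 with ACC and 113 ± 29.1 in the control (SD, n = 3 each), and CLDN4 rose by a log2 fold change of 1.16 (95% interval 0.84 to 1.48, adjusted p = 5.33e-06). Without control replicate 3, its lowest library, the log2 fold change was 0.93, short of 2-fold, and CLDN4 was then not called (adjusted p = 7.19e-07). CLDN4 lies at chr7:73799542-73832690 on the plus strand, and its canonical transcript is a single exon of 1695 bases.

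CLDN7, an epithelial claudin found along the lateral membrane as well as at the junction, had 64.3, 68.4 and 68.5 normalized counts with ACC, against 29.9, 24.9 and 25.6 in the control. These are 67 to 71 reads with ACC and 27 to 31 reads in the control, the lowest counts among the 9 genes. The groups were far apart for so few reads, with a mean of 67.1 ± 2.41 with ACC and 26.8 ± 2.69 in the control (SD, n = 3 each). CLDN7 rose by a log2 fold change of 1.30 (95% interval 0.93 to 1.66, adjusted p = 7.01e-06). It lies at chr17:7259903-7263983 on the minus strand. Of its exon bases, 17.4% are shared with a gene on that strand that is not among the 24846 genes measured. On the other strand, 2.46% are shared with ELP5, which had 1212 ± 28.1 normalized counts with ACC and 1200 ± 19.7 in the control. The sources used here do not say if strand was used in counting, and a processed copy, CLDN7P1, is annotated on chromosome X, which leaves the assignment of CLDN7 reads uncertain.

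Promoter windows of the 3 claudins that were called or fell are shown because Snail-type repressors and AP-1 are known to act on claudin genes through short motifs. Each window runs from 250 bases before to 30 bases after the main annotated start (RefSeq, GRCh38.p14), and RefSeq windows were at hand for 8 of the 9 genes. Capitals mark the E-box CAGGTG or its reverse complement CACCTG, bound by Snail-type factors, and the AP-1 motif TGANTCA. These motifs do not overlap each other in the windows shown.
CLDN7 (chr17:7262449-7262728, minus strand): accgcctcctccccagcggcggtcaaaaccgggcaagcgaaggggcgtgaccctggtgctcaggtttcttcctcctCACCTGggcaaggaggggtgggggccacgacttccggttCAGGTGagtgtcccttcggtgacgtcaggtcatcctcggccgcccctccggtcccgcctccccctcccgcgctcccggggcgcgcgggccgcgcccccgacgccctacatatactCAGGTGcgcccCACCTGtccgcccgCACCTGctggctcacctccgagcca
CLDN4 (chr7:73830746-73831025, plus strand): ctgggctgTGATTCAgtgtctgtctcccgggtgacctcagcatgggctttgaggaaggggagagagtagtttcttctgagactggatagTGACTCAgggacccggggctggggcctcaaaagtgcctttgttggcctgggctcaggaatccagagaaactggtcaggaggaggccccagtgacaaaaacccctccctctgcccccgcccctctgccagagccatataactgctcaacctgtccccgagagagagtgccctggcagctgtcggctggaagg
CLDN1 (chr3:190322417-190322696, minus strand): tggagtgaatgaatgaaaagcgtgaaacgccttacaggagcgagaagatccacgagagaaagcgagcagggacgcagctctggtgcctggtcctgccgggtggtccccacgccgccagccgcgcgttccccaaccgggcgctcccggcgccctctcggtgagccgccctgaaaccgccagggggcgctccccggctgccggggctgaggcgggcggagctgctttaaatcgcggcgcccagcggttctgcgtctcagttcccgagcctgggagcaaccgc
The CLDN7 window held 5 E-boxes, with first bases at -174, -135, -20, -9 and 5 relative to the start. Over all 35116 RefSeq windows of 300 bases, which run from 250 bases before to 50 after a start, 20.6% held at least 1 E-box and 0.094% held 5 or more. The CLDN4 window held no E-box and 2 AP-1 motifs, at -242 and -161. Of all windows, 7.71% held at least 1 AP-1 motif and 0.028% held 3 or more, and the share with 2 or more was not counted. The CLDN1 window held neither motif. As for E-boxes in the other genes, the 300-base windows at the main start held 2 E-boxes for OCLN and none for CLDN12, TJP1 or TJP3, and the 2 windows of CLDN2, which lie away from its main start, held none, although 1 of them held an AP-1 motif. The OCLN window at another start, 243 bases away, held 1 E-box and that of CLDN7, 735 bases away, held none. The Grainyhead motif AACCNGTT, present in 1.73% of all windows, was in no window of the 8 genes. A match shows only that these letters are present.

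CLDN3, the sealing claudin whose gene lies 29.3 kb from CLDN4, had 226, 194 and 229 normalized counts with ACC, against 96.4, 108 and 127 in the control. It rose by a log2 fold change of 0.97 (adjusted p = 1.45e-06) and its highest control library was replicate 3, where CLDN4 was lowest. Of 24 claudins listed, 18 were measured, 16 were tested and 8 had at least 30 reads in 1 library. Of those 8, CLDN2, CLDN3, CLDN4, CLDN7 and CLDN12 rose, CLDN1 fell, and CLDN15 and CLDN23 did not pass. CLDN15, a pore-forming claudin, averaged 217 ± 24.9 normalized counts with ACC and 227 ± 21.6 in the control (log2 fold change -0.07, adjusted p = 0.623). CLDN23 averaged 310 ± 35.8 with ACC and 346 ± 22.2 in the control (log2 fold change -0.16, adjusted p = 0.141). Among the 8 tested claudins with fewer reads, CLDN10 passed as higher and CLDN9 and CLDN14 as lower, all with under 20 normalized counts in every library. CLDN10 shares 63.2% of its exon bases with DZIP1 on the other strand, so the assignment of its reads is uncertain as well.

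To compare claudins with each other, normalized counts were divided by the length of the canonical transcript in kb. Summed over the 18 claudins, this level was 3264 ± 84.8 with ACC and 2984 ± 232 in the control (SD, n = 3 each). CLDN2 made up 49.3 ± 0.914% of the sum with ACC and 43.3 ± 3.87% in the control. CLDN1 made up 20.8 ± 0.381% with ACC and 30.6 ± 3.27% in the control. The 2 most abundant claudins together took a smaller share with ACC, 70.1 ± 0.568% with ACC against 73.9 ± 0.602% in the control, with no overlap between the groups. CLDN4 made up 4.49 ± 0.509% with ACC and 2.22 ± 0.433% in the control, and CLDN7 1.33 ± 0.041% with ACC and 0.584 ± 0.061% in the control. CLDN3, CLDN4 and CLDN7 together had 10.1% to 11.7% of the claudin level with ACC and 5.51% to 6.04% in the control. CLDN12 held 8.31 ± 0.469% with ACC and 7.84 ± 0.465% in the control, with overlapping libraries. The 5 claudins of the set accounted for 84.3 ± 0.357% of the sum with ACC and 84.5 ± 0.554% in the control. These shares are descriptions of 3 libraries each and were not tested.

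**Figure D2:**
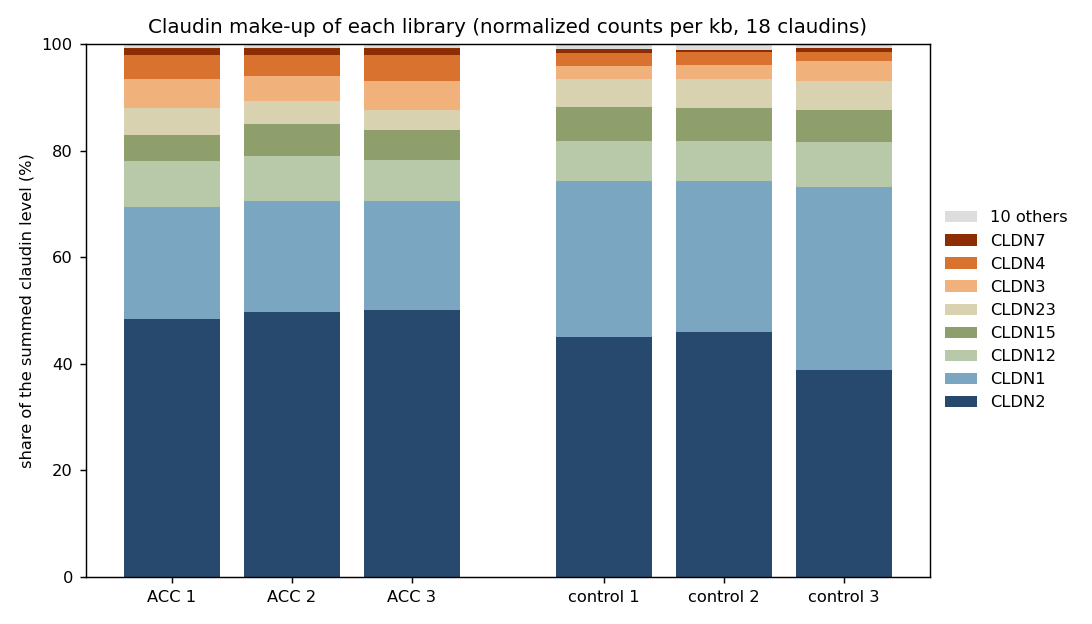
Share of each claudin in the summed level of 18 claudins (normalized counts per kb of canonical transcript, in percent), for each ACC library on the left and each control library on the right. CLDN1 takes 20.4% to 21.2% with ACC and 28.2% to 34.3% in the control, and CLDN3, CLDN4 and CLDN7 together take a larger part with ACC.

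OCLN, the first transmembrane protein found in tight junction strands, had 228, 252 and 215 normalized counts with ACC, against 192, 183 and 204 in the control. The lowest ACC library and the highest control library were close, at 215 and 204. The mean was 232 ± 19.0 with ACC and 193 ± 10.6 in the control (SD, n = 3 each), and OCLN rose by a log2 fold change of 0.26 (95% interval 0.07 to 0.45, adjusted p = 0.0239). OCLN no longer passed without ACC replicate 2 (0.20, adjusted p = 0.122), without control replicate 2 (0.22, adjusted p = 0.0853) or with DESeq2 (0.27, adjusted p = 0.0813). The gene lies at chr5:69492292-69558104 on the plus strand. A partial copy, OCLNP1, is annotated at chr5:71074225-71093193, and the sources used here do not say how reads matching both were counted.

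Among the other proteins of the MARVEL family and of tricellular contacts, where 3 cells meet, LSR and MARVELD2 rose over 2-fold. Of 6 genes listed, OCLN included, 4 were tested, 3 passed as higher, and MARVELD3 did not pass. LSR (angulin-1), which recruits tricellulin to tricellular contacts, had 363, 366 and 405 normalized counts with ACC, against 136, 133 and 133 in the control (log2 fold change 1.49, adjusted p = 4.98e-11). MARVELD2, which encodes tricellulin, had 307, 248 and 299 with ACC, against 135, 148 and 112 in the control (log2 fold change 1.11, adjusted p = 1.62e-07). Both were called higher and both had libraries that were far apart between the groups. MARVELD3 averaged 24.8 ± 7.05 with ACC and 18.2 ± 5.26 in the control (log2 fold change 0.43, adjusted p = 0.239).

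F11R, which encodes an immunoglobulin-type adhesion protein of the junction, had 827, 824 and 813 normalized counts with ACC, against 805, 751 and 735 in the control. The groups were apart by only a few counts, between 813 with ACC and 805 in the control. The mean was 822 ± 7.43 with ACC and 764 ± 36.5 in the control (SD, n = 3 each), with a log2 fold change of 0.11 (95% interval -0.0025 to 0.22, adjusted p = 0.110). Without control replicate 1 it passed (0.14, adjusted p = 0.0430). F11R lies at chr1:160995211-161021343 on the minus strand, and 39.9% of its exon bases are shared with a readthrough gene, for which the table lists 0 reads in all 6 libraries. The sources used here do not say how reads on the shared bases were counted, so some F11R reads may have been left out.

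The other immunoglobulin-type proteins went in both directions. Of 8 listed, F11R included, 5 were tested, 1 passed as higher and 3 as lower. CXADR, the coxsackievirus and adenovirus receptor, had 612, 612 and 602 normalized counts with ACC, against 350, 341 and 311 in the control (log2 fold change 0.86, adjusted p = 2.89e-09). ESAM, known from endothelial junctions, fell to 72.7, 61.6 and 56.3 with ACC, against 318, 294 and 315 in the control (log2 fold change -2.27, adjusted p = 8.85e-12). CLMP, a relative of CXADR, averaged 199 ± 5.81 with ACC and 434 ± 17.9 in the control (log2 fold change -1.12, adjusted p = 4.96e-10). JAM3 averaged 99.2 ± 14.5 with ACC and 161 ± 6.04 in the control (log2 fold change -0.70, adjusted p = 8.66e-05). Of the JAM3 exon bases, 50.2% are shared with NCAPD3 on the other strand. The use of strand in counting is not stated, which leaves the assignment of JAM3 reads uncertain. ESAM and CLMP were called lower.

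TJP3, which encodes the epithelial scaffold ZO-3, had 523, 507 and 480 normalized counts with ACC, against 104, 83.6 and 72.2 in the control. Every ACC library was far above the highest control library. The mean was 503 ± 21.7 with ACC and 86.6 ± 16.2 in the control (SD, n = 3 each), and TJP3 rose by a log2 fold change of 2.54 (95% interval 2.31 to 2.77, adjusted p = 1.86e-12). Of the genes with at least 30 reads in 1 library, 99.1% changed less in size. TJP3 lies at chr19:3708362-3750813 on the plus strand and shares 1.37% of its exon bases with APBA3 on the other strand. APBA3 averaged 326 ± 6.85 with ACC and 354 ± 27.7 in the control.

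TJP1, which encodes ZO-1, had 4614, 4839 and 4781 normalized counts with ACC, against 6366, 6352 and 6585 in the control. The groups did not overlap, and each had a narrow range. The mean was 4745 ± 117 with ACC and 6435 ± 130 in the control (SD, n = 3 each), and TJP1 fell by a log2 fold change of 0.44 (95% interval -0.51 to -0.37, adjusted p = 8.71e-09). It lies at chr15:29699367-29968915 on the minus strand, with 28 exons in its canonical transcript.

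The 2 scaffolds moved in opposite directions. The ratio of TJP3 to TJP1 counts within each library was 0.113, 0.105 and 0.1003 with ACC, against 0.0163, 0.0132 and 0.0110 in the control. The mean log2 ratio was higher by 2.99 with ACC (two-sided exact permutation p = 0.1, the smallest p possible). As TJP3 was higher and TJP1 lower in every ACC library, this p was fixed in advance and adds nothing to the results of the 2 genes. The promoter windows at the main starts of both genes, again from 250 bases before to 30 bases after, are given because these are the scaffolds that moved apart.
TJP3 (chr19:3708134-3708413, plus strand): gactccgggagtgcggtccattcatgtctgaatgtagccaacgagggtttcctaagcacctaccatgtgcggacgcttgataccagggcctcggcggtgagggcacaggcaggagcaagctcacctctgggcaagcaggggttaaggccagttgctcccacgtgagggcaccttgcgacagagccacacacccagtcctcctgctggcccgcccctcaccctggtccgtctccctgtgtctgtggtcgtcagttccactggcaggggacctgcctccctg
TJP1 (chr15:29822439-29822718, minus strand): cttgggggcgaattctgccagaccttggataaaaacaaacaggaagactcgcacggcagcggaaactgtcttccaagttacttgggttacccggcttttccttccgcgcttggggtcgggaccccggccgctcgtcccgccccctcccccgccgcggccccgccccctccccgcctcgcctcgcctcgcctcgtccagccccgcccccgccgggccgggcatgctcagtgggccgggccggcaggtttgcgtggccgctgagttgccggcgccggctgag
Neither of these windows held the E-box, AP-1 or Grainyhead letters, so neither has capitals. Windows at other annotated starts held 1 E-box for TJP3, at -7, 13353 bases from the main start, and 1 for TJP1, at -88, 146581 bases from the main start. The TJP1 window had 71.1% G and C and the TJP3 window 63.2%.

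**Figure D3:**
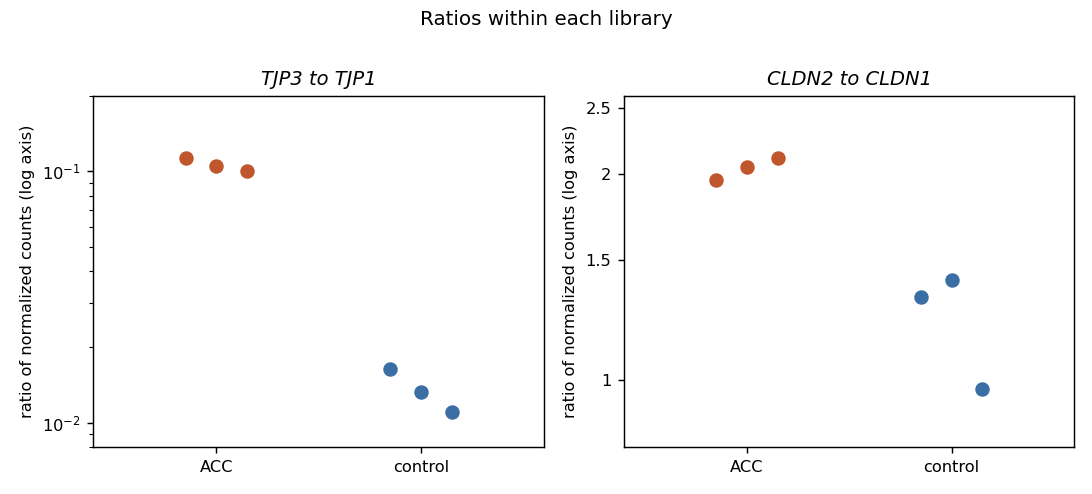
Ratio of normalized counts within each library on log axes, TJP3 to TJP1 on the left and CLDN2 to CLDN1 on the right, with ACC left of control in each panel. Both ratios are higher in every ACC library than in every control library, by a mean log2 difference of 2.99 for TJP3 to TJP1 and 0.75 for CLDN2 to CLDN1.

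Among the 12 scaffolds on the list with at least 30 reads in 1 library, which include TJP1 and TJP3, 3 passed as higher and 3 as lower. PATJ, a scaffold with many PDZ domains, averaged 1018 ± 40.1 with ACC and 742 ± 44.2 in the control (log2 fold change 0.46, adjusted p = 1.66e-06). CGNL1 (paracingulin), which ties the junction to the cytoskeleton, averaged 155 ± 10.2 with ACC and 234 ± 18.6 in the control (log2 fold change -0.59, adjusted p = 4.47e-05). SYMPK, which also serves in the 3′ end processing of mRNA, averaged 4509 ± 13.8 with ACC and 4607 ± 114 in the control and did not pass (log2 fold change -0.03, adjusted p = 0.521).

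Per kb of canonical transcript, CLDN2 had the highest level of the 9 genes in both groups, at 1611 ± 67.0 normalized counts per kb with ACC and 1297 ± 211 in the control. CLDN1 and TJP1 followed, at 679 ± 7.80 and 660 ± 16.3 with ACC and at 908 ± 23.4 and 895 ± 18.1 in the control, and their libraries overlapped in both groups. CLDN12 came next at 271 ± 8.48 with ACC and 233 ± 5.34 in the control, ahead of F11R at 177 ± 1.603 with ACC and 165 ± 7.86 in the control. These 5 genes kept the same order in both groups. The full canonical length was used for each gene. As 39.9% of the F11R exon bases are shared with a readthrough gene, the place of F11R is uncertain. TJP3 was sixth with ACC at 164 ± 7.05, not apart from CLDN4 at 147 ± 20.0, and was eighth in the control at 28.2 ± 5.26, where its libraries overlapped those of OCLN at 31.2 ± 1.71. CLDN4 was sixth in the control, at 66.7 ± 17.1. CLDN7 was eighth with ACC, at 43.5 ± 1.56, and last in the control, at 17.4 ± 1.75. OCLN was last with ACC, at 37.5 ± 3.08.

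**Figure D4:**
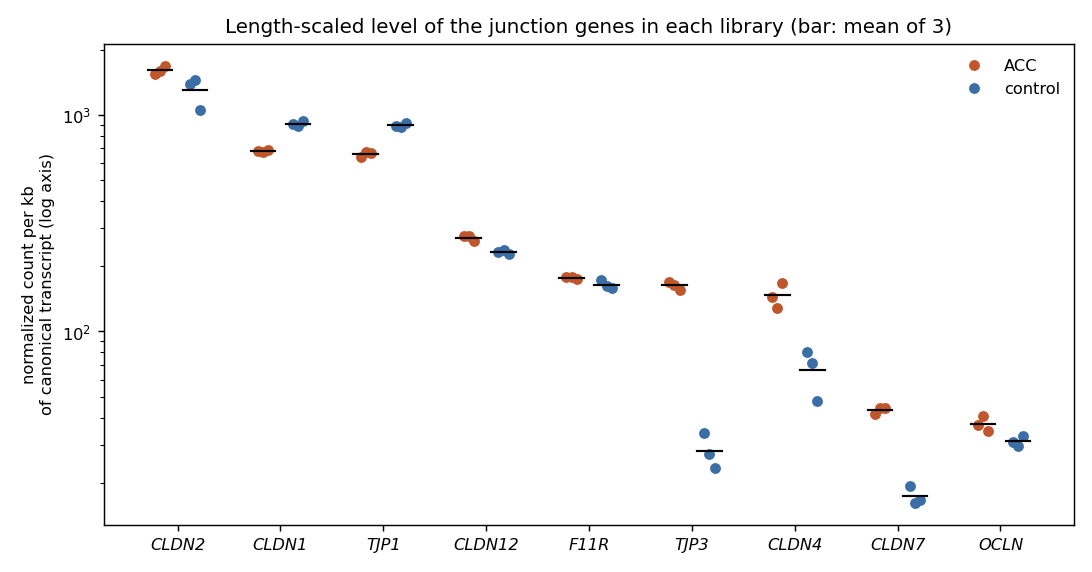
Level of the 9 genes in each library as normalized counts per kb of canonical transcript on a log axis, ACC left of control for each gene, ordered by the ACC mean (bar: mean of 3 libraries). TJP3 stands at 156 to 170 with ACC and at 23.5 to 33.8 in the control, while the 5 genes on the left keep their order in both groups.

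Within the groups, control replicate 3 lay well below the other control libraries for CLDN2 (3126, against 4123 and 4275) and CLDN4 (80.7, against 137 and 122). It also had the lowest control value of CLDN12, F11R and TJP3 and the highest of CLDN1, OCLN and TJP1, by smaller margins. Any 1 of 3 libraries is often the lowest or highest, and the share of all genes where this library was so was not counted. The coefficient of variation of CLDN4 was 13.7% with ACC and 25.7% in the control. For TJP3 it was 4.31% with ACC and 18.7% in the control, and for CLDN2 4.16% with ACC and 16.3% in the control. For TJP1 it was 2.47% with ACC and 2.03% in the control. Without control replicate 3, 6 of the 9 genes still passed as higher and 2 as lower.

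Genes of the polarity complexes, which place the tight junction at the apical edge of the lateral membrane, also went both ways. Of 13 tested, 5 passed as higher and 3 as lower. LIN7A, a PDZ protein of the Crumbs complex, had 122, 100 and 131 normalized counts with ACC, against 22.2, 32.0 and 26.6 in the control (log2 fold change 2.09, adjusted p = 1.52e-08). CRB3, the epithelial Crumbs protein, averaged 160 ± 7.70 with ACC and 83.4 ± 12.6 in the control (log2 fold change 0.94, adjusted p = 5.17e-06). PARD3, the scaffold of the PAR complex, fell to 4614 ± 106 with ACC, against 7328 ± 96.1 in the control (log2 fold change -0.67, adjusted p = 1.78e-11), while its relative PARD3B averaged 309 ± 18.5 with ACC and 202 ± 17.2 in the control (log2 fold change 0.61, adjusted p = 1.14e-05). MPP5 (PALS1) averaged 1179 ± 11.5 with ACC and 1263 ± 36.6 in the control and did not pass (adjusted p = 0.0826).

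Of 16 tested regulators that bind junction proteins, 2 passed as higher and 6 as lower. AMOTL1, an angiomotin that binds actin and YAP, averaged 1712 ± 40.0 with ACC and 579 ± 44.8 in the control (log2 fold change 1.57, adjusted p = 1.33e-13). ARHGEF2 (GEF-H1), a signaling protein held at junctions, averaged 1128 ± 37.9 with ACC and 644 ± 36.6 in the control (log2 fold change 0.81, adjusted p = 7.63e-10). WNK1, a kinase that controls ion transport, averaged 7852 ± 37.6 with ACC and 9453 ± 88.4 in the control (log2 fold change -0.27, adjusted p = 1.45e-06). AJUBA, a LIM protein, fell by a log2 fold change of 0.36 (adjusted p = 5.73e-06), and VAPA, an occludin-binding protein, differed by 0.01 on this scale (adjusted p = 0.863).

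All 9 adherens junction genes tested passed, 3 as higher and 6 as lower. CDH1, which encodes E-cadherin, averaged 3182 ± 60.8 with ACC and 1485 ± 129 in the control (log2 fold change 1.10, adjusted p = 6.03e-12). VCL, which encodes the actin linker vinculin, averaged 5350 ± 106 with ACC and 10626 ± 395 in the control (log2 fold change -0.99, adjusted p = 1.65e-13). CTNNB1 and NECTIN2, which encode β-catenin and a nectin, each fell by 0.39 on the log2 scale (adjusted p = 3.57e-08 for CTNNB1 and 1.30e-07 for NECTIN2).

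Of 13 tested transcription factors known to act on junction genes, 5 passed as higher and 5 as lower. SNAI1, the repressor Snail, was called lower, with 134, 163 and 130 normalized counts with ACC, against 270, 352 and 324 in the control (log2 fold change -1.14, adjusted p = 9.05e-08). KLF4 averaged 436 ± 25.3 with ACC and 230 ± 13.3 in the control (log2 fold change 0.92, adjusted p = 1.13e-08), and KLF5 rose by 0.54 on the same scale (adjusted p = 3.96e-08). HNF4A, a factor of endodermal epithelia, fell by 0.49 on the log2 scale (adjusted p = 2.12e-07), and ZEB2 differed by -0.02 (adjusted p = 0.903). Whether any of these factors acted on the 9 genes was not tested.

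**Figure D5:**
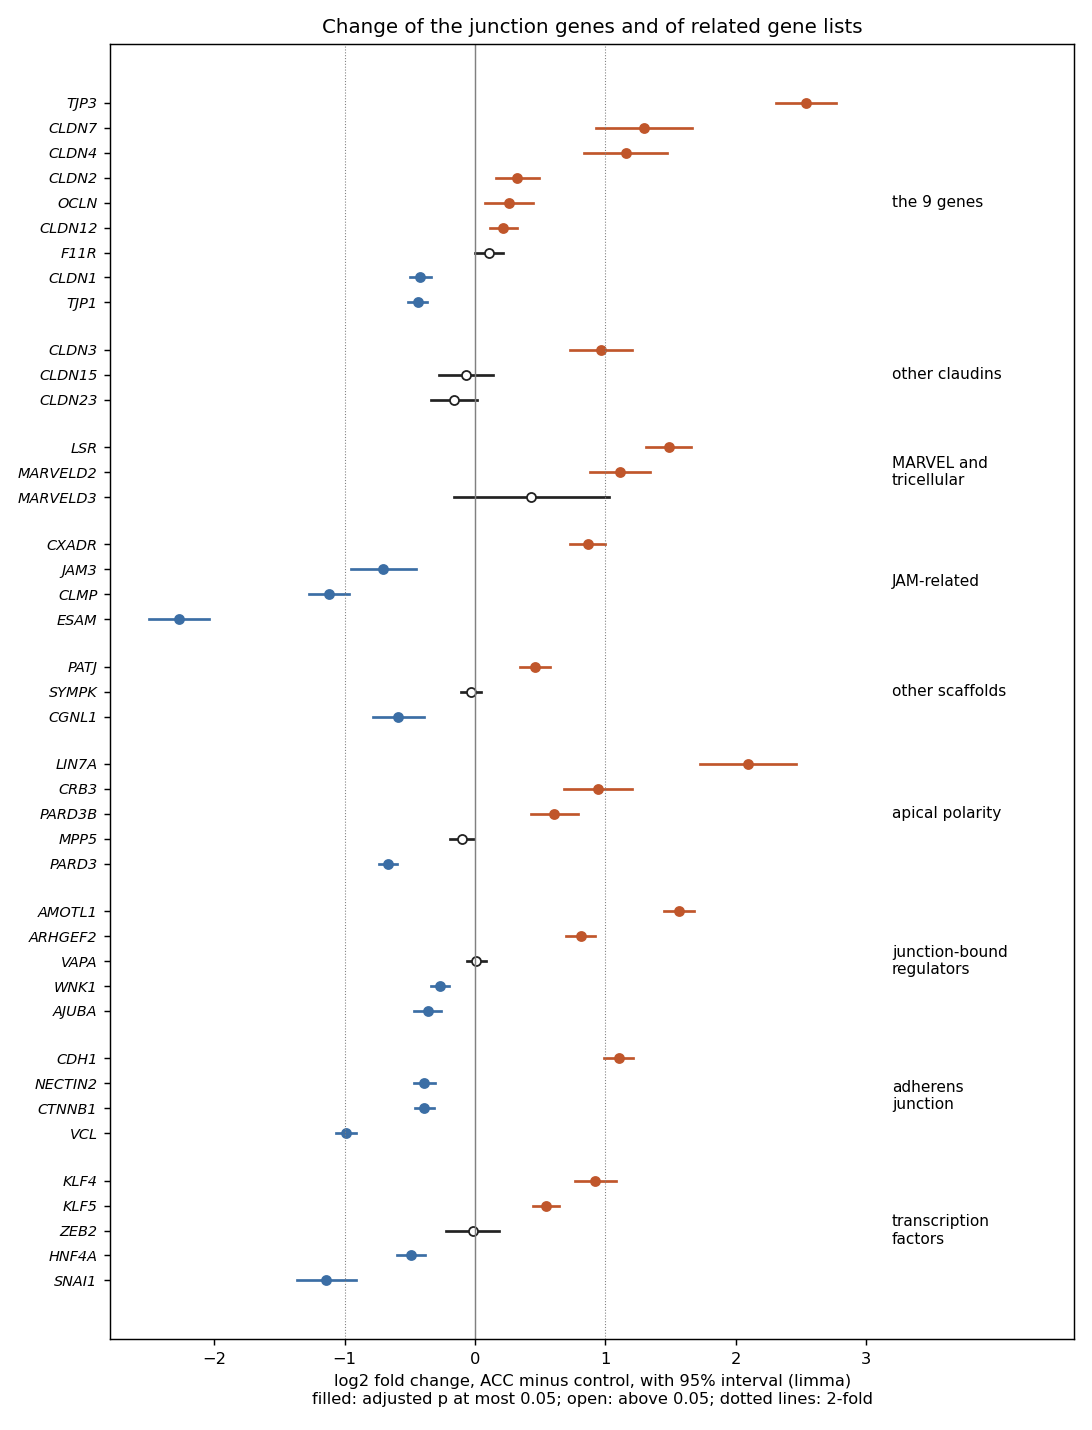
Log2 fold change of ACC over control with its 95% interval (limma) for the 9 genes and for the genes named from 8 related lists, higher genes above lower ones within each list. Filled points passed the test. TJP3 (2.54), LIN7A (2.09), AMOTL1 (1.57) and LSR (1.49) lie farthest to the right, and ESAM (-2.27) farthest to the left.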

How the data were processed

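RNA from A549 cells was sequenced as polyA libraries with single reads. The labels gave each sample's treatment and replicate number. Per the study's methods, trimming was done with Cutadapt, mapping to GRCh38 with STAR 2.4.2a and counting per gene with htseq-count. The deposited signal values are gene counts that the authors divided by DESeq2 size factors. Their deposited fold changes and p-values come from their own comparison and were not used. After division by the value of 1 read, 100% of positive values were whole to within 0.1 read, so reads per gene could be recovered.

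limma 3.58.1 (R 4.3.3) with a mean-variance trend was fitted to log2(normalized count + 1) for the 19318 genes with a sum of at least 10, with Benjamini-Hochberg adjustment over all of them. The code was run on simulated counts with 1 dispersion for every gene and far fewer changed genes than passed here. That run checked the code and does not show how the test performs on these data. The thresholds of a call (adjusted p of 0.05, 2-fold, 30 reads) are those of the study's methods. Alternatives were other pseudocounts, filters and scalings, edgeR 4.0.16, DESeq2 1.42.0 and limma's voom on the recovered reads, a block on the replicate number, other call thresholds and leaving out each library. Transcript lengths and positions came from GENCODE 44 (GRCh38). The authors used another annotation release. Named are all 9 genes, every claudin with at least 30 reads in 1 library, and from each other list up to 4 genes with the smallest adjusted p and the most abundant gene that did not pass, all with at least 30 reads. CLDN9, CLDN10, CLDN14, PECAM1, LUM, PDGFRB, MORC4, ELP5 and APBA3 were named after their values were seen, and 1 listed gene is not reported here. The 9 genes, the lists and the tests were chosen with earlier results of these data known. Ratios within a library were compared with exact permutation tests.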

Additional observations from a re-analysis of the deposited data

How the results depend on the processing

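Of the 153 values of the 9 genes under 17 alternatives, 148 kept their direction and their side of the threshold. The exceptions were CLDN2 with DESeq2, OCLN with DESeq2 and without ACC or control replicate 2, and F11R without control replicate 1, whose values stand in the report, and the cause was not tested. All 9 kept their direction in every alternative. CLDN2 ranged from 0.18 to 0.41 (log2), CLDN4 from 0.93 to 1.31 and TJP3 from 2.42 to 2.68. With a 1.5-fold threshold, 1194 genes were called higher and 965 lower, and with at least 100 reads in 1 library 353 and 276, where the main counts were 536 and 432. The 100-read threshold removed CLDN7 from the calls among the 9 genes. Among the other named genes, 3 genes near 0 changed sign when single libraries were left out. Over those 6 fits, CLDN15 ranged from -0.1502 to 0.0292, VAPA from -0.0002 to 0.0207 and ZEB2 from -0.0685 to 0.0305. CLDN23 passed without ACC replicate 1 (-0.25, adjusted p = 0.0284). In no alternative did the median log2 fold change of the genes tested lie beyond 0.0084 (edgeR), and with the other scalings it ranged from -0.0069 to 0.0068. The 3 same-numbered pairs of libraries had correlations of -0.11, 0.04 and -0.03 between their deviations from the group means. These values gave no sign that the numbers pair the samples, but so few pairs cannot exclude it. With the number as a replicate block, 536 genes were called higher and 432 lower, and the counts among the 9 genes were 6 passing higher, 2 passing lower and 3 called higher. Depth limits CLDN7 most, with 27 to 71 reads.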
